A study of Mus musculus with 24 samples.

Results

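The genes described here fell on the first day of embryoid body formation and came back on the second. They were selected on their f/f values, f/f being the conditional line without deletion, as genes with at least 10 CPM (reads per gene scaled to the same library total) both in the state labelled 3i and at embryoid body (EB) day 2, each at least 2-fold above EB day 1 after 0.5 was added to each CPM. The rule found 68 genes of 23284 gene symbols, which is 0.779% of the 8728 genes that reached 10 CPM at both f/f states. Their f/f values are given as a description, because those values chose them. Their values in the 3 other lines did not enter the rule and were tested.

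Polyadenylated RNA was sequenced from C57BL/6 mouse embryonic stem cells and from EBs, the aggregates that such cells form when they begin to differentiate. EED is a subunit of Polycomb repressive complex 2 (PRC2), which marks and silences developmental genes. The 4 lines were f/f (Eed conditional, no tamoxifen), KO (Eed deleted with 800 nM 4-hydroxytamoxifen), KO+WT EED (the KO with wild-type EED put back) and KO+N-KR EED (the KO with a form of EED that the labels name N-KR and do not spell out). Each was sampled in 3i, at EB day 1 and at EB day 2, with 2 libraries per group. The labels do not say how many clones a line stands for, and the protocols describe growth in serum and LIF on feeder layers. Tamoxifen was given to every line but f/f, so against f/f the drug, the genotype and the history of a line cannot be told apart.

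Within each group, the count differences between both libraries had 1.10 to 1.18 times the variance of binomial sampling, while pairs of lines had 3.48 to 15.5 times. The labels name no separate cultures, so the pair was added up as a single sample (12 in all, 18017598 to 25160294 counts each). All 7 stem cell markers were present in every sample. Eed transcripts were at 144 CPM in KO 3i and 178 CPM in f/f 3i. Counts run over the whole gene, so this does not check the deletion. At 3i, day 1 and day 2, Eed was at 399, 360 and 190 CPM in KO+WT EED. In KO+N-KR EED it was at 173, 179 and 121 CPM. The part of this difference in the comparisons between lines was not tested. Summed CPM of 16 feeder fibroblast markers was 874 to 1478 in 3i and 75.0 to 141 at day 1. At day 2 it was 85.9 to 194, so the sum fell after 3i and stayed low. Single markers differed, and Thy1 was above its 3i level at day 2 in each line (5.84 and 21.1 CPM in KO+N-KR EED). Of 23 genes of a longer feeder list in the fit below, 6 were called lower at day 1 than at both 3i and day 2 (12.8% of all genes). The part of feeder genes in the fall of the members from 3i was not tested. In bulk RNA, fewer cells of a type and less RNA per cell cannot be told apart.

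As background, the module mixes several kinds of gene. Fos and Jun encode subunits of AP-1, a transcription factor that growth factors, serum and stress switch on within minutes. Lysosomal membrane proteins and hydrolases degrade material brought in by endocytosis and autophagy. Notch receptors pass signals between touching cells, and Tfap2c encodes AP-2 gamma, a transcription factor of trophoblast, germ cells and early embryonic cells.

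RefSeq (build GRCm38.p6) gave a promoter window, from 250 bases before to 50 bases after the start, for 52 members. For 15 of them it gave several windows, and only the first listed window of each gene was searched. Both strands were searched for 12 short motifs, chosen with earlier results known. No motif was shared by most members beyond its share among expressed genes (6996 windows of genes at 10 CPM in f/f 3i and day 2). The GC box GGGCGG was in 69.2% of members and 69.3% of expressed genes, the CCAAT box in 38.5% and 40.7%, the E-box CACGTG in 9.62% and 11.5%, the cyclic AMP response core TGACGT in 13.5% and 13.6%, the hypoxia response core ACGTG in 28.8% and 28.2%, and the AP-1 site TGANTCA in 1.92% and 3.89%. That comparator was added after the members had been set against all windows, where the shares were 35.9%, 37.9%, 7.24%, 7.64%, 19.7% and 7.93%. The TATA box TATAAA was in 6 members, 11.5%, against 5.97% of expressed genes and 14.2% of all windows. The ETS core CCGGAAG was in 3 members, 5.77%, against 22.0% and 9.12%. The remaining 4 motifs were in at most 3 members each. TCACGTG, which holds the E-box, was in 3 (5.77%, against 7.18% of expressed genes) and the FOXO site GTAAACA in 2 (3.85% against 2.43%). The octamer ATGCAAAT and the ATF4 element TGATGNAA were in 0 members, against 1.34% and 1.90% of expressed genes. The median ratio of observed to expected CpG was 0.70 in members and 0.81 in expressed genes.

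In 4 of the 6 members with a TATA box it lay between bases -40 and -20, where such boxes usually stand (7.69% of members, 0.843% of expressed genes). That position limit was set after the sites had been seen, so the pair of shares is a description only. The stretches below were likewise picked after the hits were known. Fos, Cpeb1, Trim63 and Ndrg2 are shown for the TATA box, and Fos, Ltbp1 and Fam134b for the cyclic AMP response core. Prom1 is shown for the only AP-1 site in the windows searched. Each runs 5′ to 3′ along the gene, 100 bases, with the motif in capitals; TTTATA is a TATA box read from the other strand, and in Ltbp1 and Fam134b cores on both strands overlap.
Fos, chr12:85473790-85473889, plus strand: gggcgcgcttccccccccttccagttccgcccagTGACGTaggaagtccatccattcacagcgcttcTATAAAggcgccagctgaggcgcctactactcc
Cpeb1, chr7:81454759-81454858, minus strand: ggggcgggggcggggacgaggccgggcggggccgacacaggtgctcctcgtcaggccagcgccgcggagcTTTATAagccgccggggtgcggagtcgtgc
Trim63, chr4:134315020-134315119, plus strand: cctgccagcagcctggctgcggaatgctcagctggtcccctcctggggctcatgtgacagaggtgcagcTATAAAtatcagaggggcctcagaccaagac
Ndrg2, chr14:51914005-51914104, minus strand: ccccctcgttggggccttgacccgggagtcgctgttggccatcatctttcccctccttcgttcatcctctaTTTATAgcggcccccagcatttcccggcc
Ltbp1, chr17:75005429-75005528, plus strand: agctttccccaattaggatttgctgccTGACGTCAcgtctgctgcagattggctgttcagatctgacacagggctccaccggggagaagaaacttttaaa
Fam134b, chr15:25843098-25843197, plus strand: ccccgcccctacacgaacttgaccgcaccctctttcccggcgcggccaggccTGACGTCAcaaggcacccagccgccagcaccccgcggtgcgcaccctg
Prom1, chr5:44101757-44101856, minus strand: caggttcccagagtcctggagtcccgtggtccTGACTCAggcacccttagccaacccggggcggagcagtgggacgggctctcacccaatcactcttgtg
A match is only a run of letters, and says nothing about which factor was bound.

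The dip was present in the 3 lines that had not been used to choose it. The median depth of the dip, taken as the smaller of the 2 differences from day 1 on the log2(CPM + 0.5) scale, was 1.17 in KO, 1.24 in KO+WT EED and 1.16 in KO+N-KR EED, beside 1.21 in f/f. Median levels at 3i, day 1 and day 2 were 23.7, 9.51 and 26.5 CPM in KO, 22.0, 8.12 and 22.6 CPM in KO+WT EED, and 23.3, 7.41 and 18.7 CPM in KO+N-KR EED. Day 1 was the lowest state in all 3 lines for 67 of the 68 members, against 23.9% of the genes expressed in f/f.

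**Figure D1:**
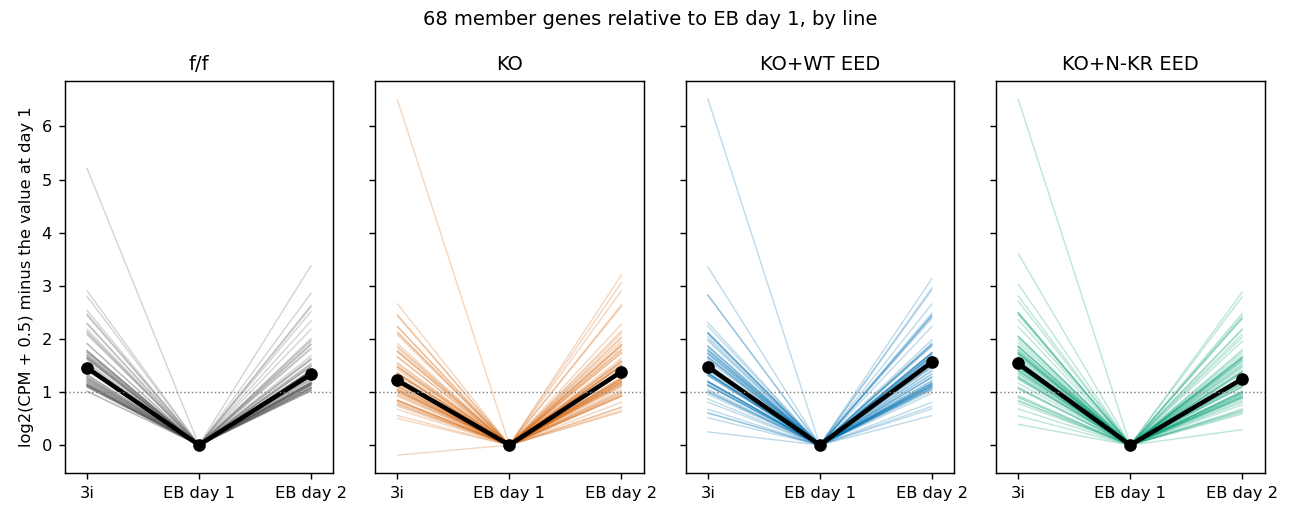
Level of each of the 68 members minus its own EB day 1 level, on the log2(CPM + 0.5) scale, in the 3 states (x axis) of each line. Thin lines are genes, black points are medians and the dotted line marks 2-fold; the medians are lowest at day 1 in all 4 panels, with the 3i side the higher one in f/f (1.46 against 1.33) and KO+N-KR EED (1.54 against 1.25) and the day 2 side in KO (1.38 against 1.22) and KO+WT EED (1.56 against 1.47); the f/f panel is fixed by the rule.

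The full size rule (10 CPM at both ends and 2-fold on both sides) was met by 46 members in KO, where 1.22% of genes at 10 CPM met it, by 54 in KO+WT EED (1.42%) and by 43 in KO+N-KR EED (0.961%). In all 3 lines it was met by 30 members, against 0.479% of genes. The 6 members that met it in no other line included Snhg12, Golim4, Car13, Notch3 and Hist1h1c, and day 1 was still the lowest state of these genes in each line. The rule chose the most extreme f/f values, so smaller folds in lines not used for the choice are built into the comparison with f/f. Just inside the limit in f/f lay Tulp4 (smaller fold 2.01), Arhgef10 (2.03) and Golim4 (2.03), and just outside lay Loxl2 (1.994), Sycp3 (1.993) and Tef (1.991).

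An additive model of line and state was fitted to the 9 samples of the 3 other lines with edgeR's quasi-likelihood test and Benjamini-Hochberg adjustment over 15139 genes, so that lines served as replicates of a state. The mean of 3i and day 2 was above day 1 in 68 of 68 members, where 28.5% of all genes passed (adjusted p from 1.02e-07 to 0.000685). The median log2 difference was 1.39 in members and 0.03 over all genes tested. The 3i level was above day 1 in 67 members (31.1% of all genes) and the day 2 level in 68 (25.5%). Both passed in 67 members, against 12.8% of all genes.

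**Figure D2:**
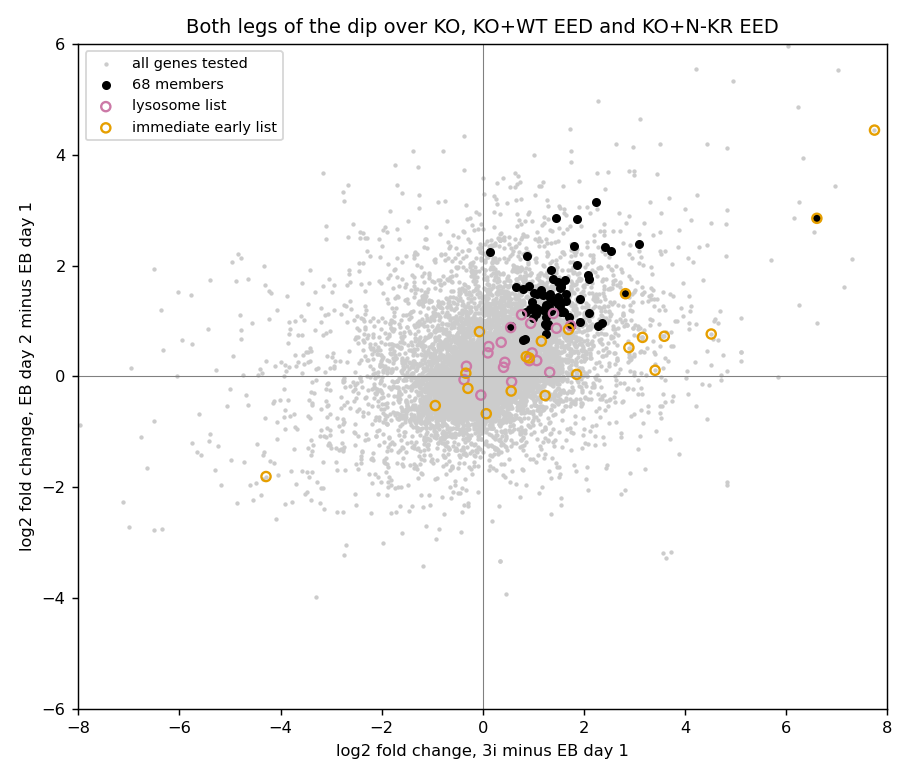
Fitted log2 fold change of 3i over EB day 1 (x axis) against EB day 2 over EB day 1 (y axis) in KO, KO+WT EED and KO+N-KR EED, 1 point per gene. The 68 members (black) lie in the upper right, where both neighbours exceed day 1, while the immediate early list (orange rings) spreads along the x axis.

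Of the AP-1 subunits, Fos had the largest fitted dip of all members (4.73 ± 0.17, SE, on the log2 scale). By the smaller of its 2 differences it was also the deepest in f/f, KO and KO+WT EED, but in KO+N-KR EED Espn (2.43), Ap3b2 (2.38) and Copz2 (2.19) lay above it (2.16). It was at 444, 4.42 and 40.6 CPM in KO at 3i, day 1 and day 2, at 356, 3.39 and 28.9 CPM in KO+WT EED, at 395, 3.86 and 19.0 CPM in KO+N-KR EED and at 197, 4.82 and 38.0 CPM in f/f. The ranges of the 3 states over the lines did not overlap, and day 2 stayed far below 3i in each line. The log2 difference was 6.61 ± 0.18 (SE) on the 3i side and 2.85 ± 0.18 on the day 2 side. Jun was at 76.1, 11.6 and 48.3 CPM in KO, 72.1, 6.59 and 22.2 CPM in KO+WT EED, 56.6, 9.62 and 15.4 CPM in KO+N-KR EED and 42.9, 7.48 and 20.5 CPM in f/f. Its day 2 level in KO was above that of each other line, and its day 2 side was the smaller one in all 4. Of 21 immediate early genes tested, 8 passed on both sides of day 1 (Fos, Jun, Fosb, Fosl2, Jund, Btg2, Cyr61 and Zfp36), where 12.8% of all genes did. The list's median log2 dip was 0.90 against 0.03 for all genes. In the list 16 of the 21 were lower at day 1 than the mean of its neighbours (28.5% of all genes) and 3 were higher. Myc, a growth-promoting transcription factor, was among the 3, with a log2 value of -3.05 ± 0.13 (SE).

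Among transcription and nuclear RNA genes, Tfap2c had the largest fitted dip. It was at 153, 27.6 and 171 CPM in KO at 3i, day 1 and day 2, at 87.0, 11.9 and 68.7 CPM in KO+WT EED, at 102, 17.6 and 57.1 CPM in KO+N-KR EED and at 91.0, 12.6 and 51.2 CPM in f/f. KO was highest in every state, and the V was kept in all 4 lines (fitted log2 dip 2.40 ± 0.16, SE). Snhg12, a small nucleolar RNA host, had one of the smallest dips (0.73 ± 0.09, SE). Of 13 nuclear long noncoding and host RNAs tested, 6 passed on both sides (12.8% of all genes).

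**Figure D3:**
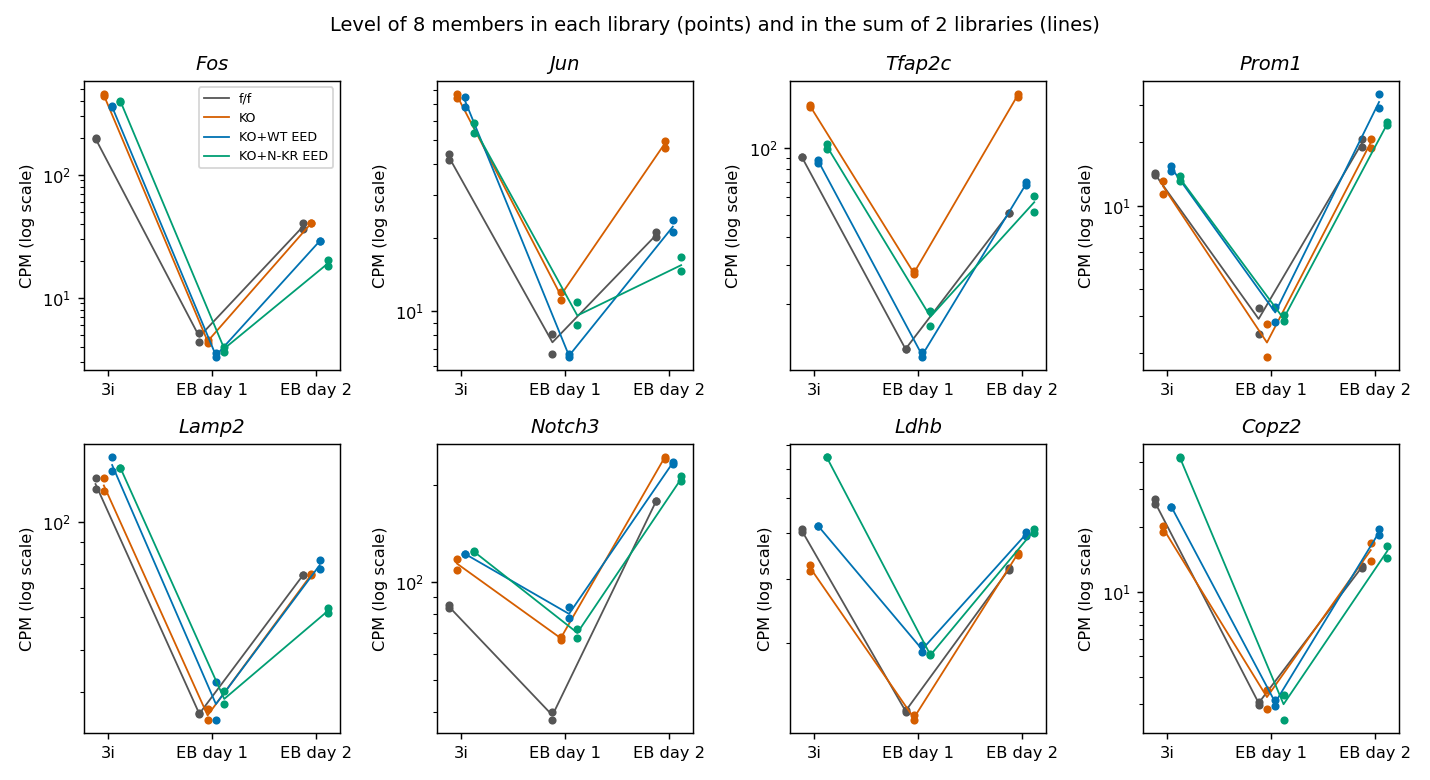
CPM on a log axis of 8 members in the 3 states, by line; points are single libraries and lines join the sums of 2 libraries. Fos regains little of its 3i level by day 2, Tfap2c is highest in KO throughout, and Notch3 is highest at day 2 in every line.

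The traffic and lysosome genes were the largest role group, with 13 members by a grouping made after the values were known. Copz2, a coat protein of Golgi vesicles, was at 19.6, 3.24 and 15.6 CPM in KO, 24.7, 3.06 and 18.8 CPM in KO+WT EED and 42.0, 3.00 and 15.4 CPM in KO+N-KR EED (log2 dip 2.74 ± 0.22, SE). Its day 1 levels were nearly equal across lines, and the spread lay in 3i. Lamp2, a lysosomal membrane protein needed for autophagy, was at 122, 35.2 and 75.4 CPM in KO, 136, 37.4 and 79.3 CPM in KO+WT EED and 134, 38.5 and 62.0 CPM in KO+N-KR EED. It was close across lines in 3i and at day 1, and lowest in KO+N-KR EED at day 2 (fitted log2 dip 1.33 ± 0.07, SE). The smaller of its 2 differences was 0.68 in KO+N-KR EED, under the 2-fold limit, against 1.09 in KO and 1.07 in KO+WT EED. Fuca2, a fucosidase gene, was also lower at day 1 (1.09 ± 0.14). Of the 19 genes of a lysosome list, 12 passed on both sides (12.8% of all genes), with a median log2 dip of 0.60. In that list 15 were lower at day 1 (28.5% of all genes) and 1 was higher. High shares were not particular to it, as 8 of 19 FOXO genes and 7 of 20 actin cytoskeleton genes also passed on both sides. Of 20 heat shock and unfolded protein genes, 0 did. Gpr137b and its copy Gpr137b-ps are near identical, and reads may be split between them, so their separate values are uncertain.

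Both Notch pathway members, the receptor gene Notch3 and Dtx1, whose product regulates Notch, were further above day 1 at day 2 than at 3i in the 3 fitted lines. Notch3 was at 114, 67.4 and 242 CPM in KO, 122, 80.0 and 234 CPM in KO+WT EED, 125, 70.0 and 208 CPM in KO+N-KR EED and 84.4, 39.0 and 178 CPM in f/f. Day 2 was the highest state in each line. The log2 differences from day 1 were 0.65 ± 0.07 (SE) for 3i and 1.61 ± 0.07 for day 2. Of 16 genes of a Notch list that does not hold Dtx1, 5 passed on both sides (Notch3, Notch1, Hes1, Nrarp and Mfng), where 12.8% of all genes did. In that list 8 genes were lower at day 1 (28.5% of all genes) and 2 were higher, with a median log2 dip of 0.36.

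Cell surface and germ cell genes held further deep dips. Prom1, which encodes the membrane protein prominin 1, was at 12.3, 2.23 and 20.0 CPM in KO, 15.1, 3.11 and 31.1 CPM in KO+WT EED and 13.5, 2.90 and 24.5 CPM in KO+N-KR EED (log2 dip 2.69 ± 0.11, SE). Day 2 exceeded 3i in each of them. App, the amyloid precursor protein gene, had a log2 dip of 1.94 ± 0.09, and Cpeb1, which controls translation in oocytes, one of 2.35 ± 0.19. Among metabolic genes, Ldhb, a lactate dehydrogenase subunit, had the highest levels, at 322, 125 and 351 CPM in KO and 648, 186 and 408 CPM in KO+N-KR EED. No member belonged to the hypoxia and glycolysis list. Of its 37 genes tested, 17 passed on both sides (12.8% of all genes), with a median log2 dip of 0.51. No gene of 20 formative pluripotency genes did so, and 18 of those were higher at day 1.

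**Figure D4:**
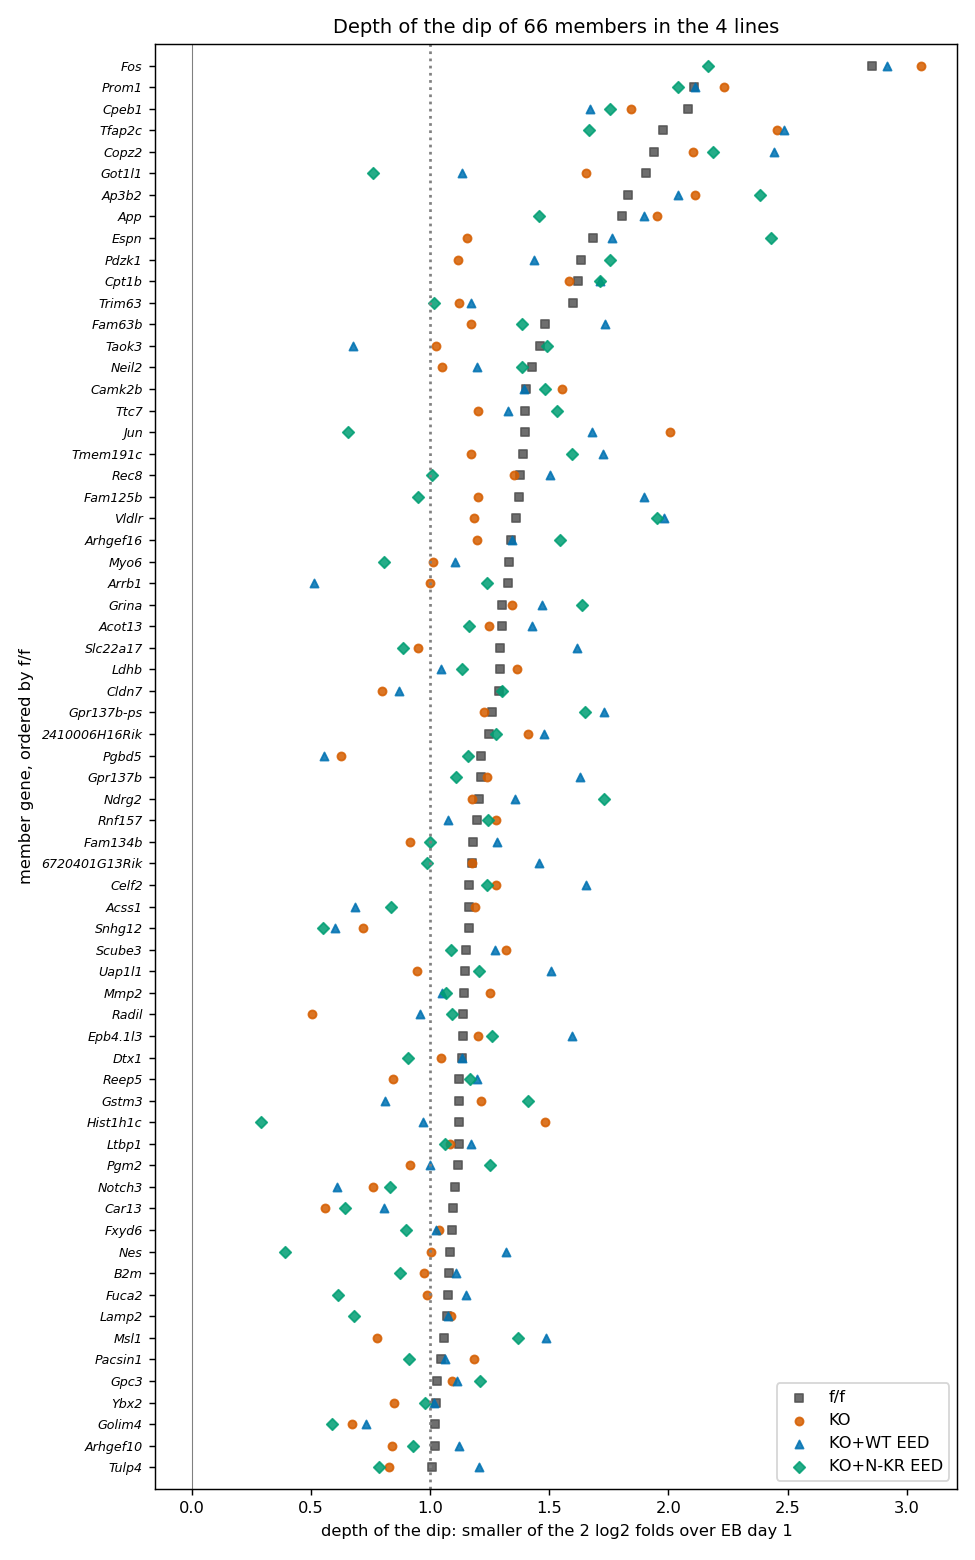
Depth of the dip (x axis, smaller of the 2 log2 folds over EB day 1) of 66 members (rows, ordered by f/f) in the 4 lines; the dotted line is the 2-fold limit. Values of the other lines scatter on both sides of f/f, and Fos has the deepest dip in f/f, KO and KO+WT EED.

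The depth of the dip was larger in KO+WT EED than in KO for 45 members and smaller for 23, and larger in KO+WT EED than in KO+N-KR EED for 43 and smaller for 25. With 1 sample per line and state, a difference in depth between lines has no test. The lines also differed in level. Among KO, KO+WT EED and KO+N-KR EED, KO was highest at day 1 for 46 members (67.6%, against 40.6% of expressed genes) and at day 2 for 42 (61.8% against 42.1%). KO+N-KR EED was lowest at day 1 for 34 members (25.1% of expressed genes) and at day 2 for 54 (79.4% against 34.7%). In 3i the order was not the same: KO was highest for 24 members (35.3% against 40.6%), and KO+N-KR EED was lowest for 16 (23.5% against 31.0%). The ranking was first made with f/f included, where KO was highest for 39 members at day 1 (29.6% of expressed genes) and 39 at day 2 (34.9%), and KO+N-KR EED was lowest at day 2 for 35 (26.4%); f/f was then left out because its levels chose the members. These are counts over genes of single samples, with no test.

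Over the 3 states, with states as replicates of a line, the levels of members were compared between lines. Against KO, 4 members were higher in KO+WT EED (6.21% of all genes were, against 5.88% of members) and 8 were lower (7.9% of all genes, 11.8% of members). The 4 were Trim63, Pdzk1, Prom1 and Camk2b, with log2 differences of 0.73, 0.66, 0.50 and 0.49. Tfap2c was lower by the most (-1.09 ± 0.16, SE, adjusted p = 0.00254 by edgeR), followed by Rnf157, Arhgef10, Got1l1 and Pgbd5. In KO+N-KR EED, 3 were higher than in KO (5.94% of all genes, 4.41% of members), namely Trim63, Ldhb and Fxyd6, and 13 were lower (7.81% of all genes, 19.1% of members). Those 13 were led by Tfap2c (-0.94 ± 0.16, adjusted p = 0.00519), Arhgef10, Tulp4, Jun and Got1l1. Both comparisons use the same KO samples. Without EB day 1, which leaves 2 states, no member passed in either comparison by edgeR. At an unadjusted edgeR p under 0.05, 7 members were higher and 13 lower in KO+WT EED. In KO+N-KR EED 6 were higher and 17 lower. For this unadjusted limit, here and between the rescued lines below, the share of all genes was not computed. These counts therefore describe members only. Between the rescued lines, no member was higher in KO+N-KR EED by edgeR or DESeq2 (0.244% of all genes by edgeR; at an unadjusted p under 0.05, 0 members were higher and 9 lower) and 1 was lower (0.185%), Camk2b, a calcium-dependent kinase subunit, with -0.69 ± 0.12 (adjusted p = 0.0447). Camk2b also had the largest gap between the 2 libraries of a group, 0.70 on the log2 scale at day 1 in KO+N-KR EED, and its call was lost with either replicate left out, and with any 1 of the 3 states left out.

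**Figure D5:**
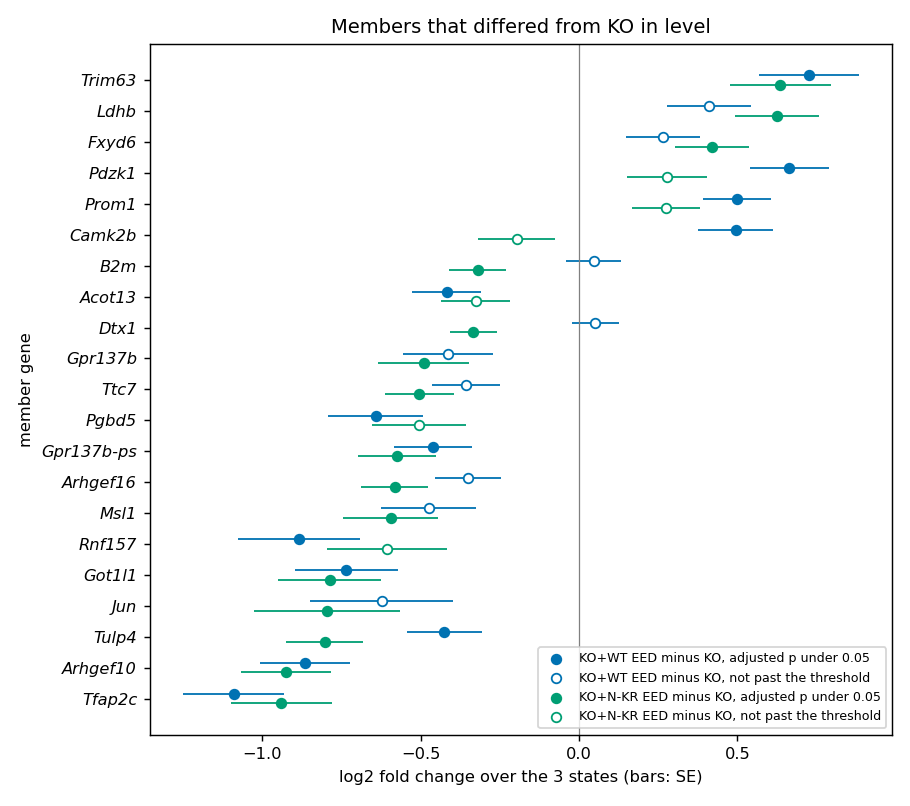
Log2 fold change against KO over the 3 states (x axis, bars are SE) for members named here that passed in KO+WT EED (blue) or KO+N-KR EED (green); filled points have an adjusted p under 0.05. Tfap2c lies farthest to the left in both lines (-1.09 and -0.94) and Trim63 farthest to the right.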

How the data were processed

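The authors deposited a table of raw counts (23284 symbols, 30 columns), of which 24 columns match the labels and 6 others were left aside. Per the submitters' processing notes, STAR 2.5.2b and DESeq2 were used with build mm9; for the counting tool, strand and annotation, the answer is not given in the sources used here. Reads of overlapping or antisense genes may therefore be mixed. Library totals were 7553683 to 14426034. Members and gene lists were chosen with earlier results of these data known. Role groups, the promoter comparator, the TATA position limit, the printed stretches and the ranking without f/f were set after values had been seen. Genes were named by a written rule: deepest f/f dips, list members, up to 5 calls per direction, those beside the limit and the largest and smallest mean dips; others were picked after their values were seen.

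Libraries were summed by group. CPM used column totals. edgeR 4.0.16 (R 4.3.3; TMM, filterByExpr, glmQLFit, line plus state, 4 residual degrees of freedom, adjusted p under 0.05) was fitted to 9 samples; p-values measure the spread between these samples. Alternatives included DESeq2 1.42.0. On simulated data, 2-fold dips over 9 samples were recovered in 100% of 200 changed genes of 14872, with 10 false calls. The simulation held no differences between lines and gave every gene the same spread, so it does not give the error rate of the real fit. Promoters came from RefSeq GRCm38.p6; all 68 members matched, 6 by an older name. Individual results of 2 members are not reported here; both stay in the counts.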

Additional observations from a re-analysis of the deposited data

How the results depend on the processing

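All 68 members were lower at day 1 under each alternative run, and the counts that pass on both sides stayed between 66 and 68. The share of all genes lower at day 1 ran from 18.4% without KO+WT EED to 36.1% with 18 libraries apart. Under the same 2 settings, 6.35% and 18.7% of all genes passed on both sides. The member counts of the line comparisons moved more. Their shares of all genes called also moved and are given here in parentheses. The cause of these moves was not tested, and a left-out state also leaves fewer samples. Members lower in KO+N-KR EED than in KO+WT EED went from 1 (0.185%) to 0 with library totals alone (0.132%). They were also 0 without 3i (0.129%), without EB day 1 (0.00666%) and without EB day 2 (0.0952%). With replicate 2 or replicate 1 left out they were 0 as well (0.1385% and 0.1368%). Members lower in KO+WT EED than in KO went from 8 (7.90%) to 13 with no filter on low counts (1221 of 19682 genes), 16 without 3i (10.3%), 0 without EB day 1 (0.300%) and 4 without EB day 2 (4.07%). Members higher went from 4 (6.21%) to 0 without EB day 1 (0.186%) and 2 without EB day 2 (2.80%). For KO+N-KR EED against KO, members higher went from 3 (5.94%) to 1 without 3i (8.40%) and 0 without EB day 1 (0.280%), and members lower from 13 (7.81%) to 30 without 3i (10.7%), 0 without EB day 1 (0.579%) and 5 without EB day 2 (3.81%).

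No single-gene call reversed, but many were lost, including all of them without EB day 1. Of the 12 KO+WT EED calls against KO, 8 were lost without EB day 2, 4 without replicate 2 (Camk2b, Gpr137b-ps, Acot13 and Tulp4), 1 without replicate 1 (Pgbd5) and 1 without 3i (Camk2b). Of the 16 KO+N-KR EED calls against KO, 9 were lost without EB day 2, 5 without replicate 1, 3 without 3i, 2 without replicate 2 (B2m and Trim63), 2 with library totals alone (Jun, adjusted p = 0.0505, and Fxyd6, 0.0516), 2 with DESeq2 (Jun and B2m) and 1 with no filter (B2m).

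With the 18 libraries kept apart, which treats near-duplicate libraries as replicates, calls rose over all genes too. For KO+WT EED against KO, 10 members were higher (20.4% of all genes, 14.7% of members) and 21 lower (19.0%, 30.9%). For KO+N-KR EED against KO, 9 were higher (20.4%, 13.2%) and 28 lower (18.8%, 41.2%). For KO+N-KR EED against KO+WT EED, 8 were lower (2.57%, 11.8%). With a replicate block the counts in the same order were 10 (19.6% of all genes), 21 (18.4%), 9 (19.7%), 27 (18.2%) and 7 (2.21%). Same-numbered libraries did not deviate together (r from -0.03 to 0.03 over 66 pairs). The column names do put the 2 replicate numbers in separate sets. Differences between libraries were near sampling noise, so a small deviation shared by a set would not be seen.

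The rule gave 118 members at a 5 CPM minimum, 33 at 20 CPM, 300 at 1.5-fold and 12 at 3-fold. Of these, 78, 20, 193 and 8 met the size rule in KO (182, 59, 372 and 17 of all genes). In KO+WT EED it was met by 80, 24, 225 and 8 (186, 65, 415 and 19 of all genes). In KO+N-KR EED it was met by 64, 15, 194 and 8 (122, 41, 306 and 13 of all genes). With TMM-scaled CPM the rule gave 64 members. It was met by 37 of them in KO, 46 in KO+WT EED and 39 in KO+N-KR EED (93, 102 and 77 of all genes). For these altered rules the all-gene numbers are counts. Their share of the genes at the CPM minimum was not computed. With 0.1 added in place of 0.5, median dips in f/f, KO, KO+WT EED and KO+N-KR EED were 1.25, 1.22, 1.28 and 1.20, with 1 added 1.16, 1.11, 1.20 and 1.12, and with TMM-scaled CPM 1.14, 1.11 and 1.18 in the first 3. With a replicate left out, they ran from 1.20 to 1.25 in f/f, 1.10 to 1.16 in KO, 1.27 to 1.28 in KO+WT EED and 1.12 to 1.16 in KO+N-KR EED. Replicate 1 or replicate 2 alone chose 74 genes, of which 62 and 63 were among the 68. Library totals alone put the median 3i difference of all genes at 0.10, against 0.02 with TMM.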
